A study of Mus musculus with 20 samples.

Results

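Fatty acid oxidation and ketone body metabolism were followed through 38 genes, chosen by name from the 55401 genes of the count table, in 5 organs of wild-type (WT) and Nsun6 knockout (KO) mice. The genes were placed in 8 roles, which are entry of fatty acids into the cell, activation to acyl-CoA, the carnitine shuttle, mitochondrial beta-oxidation, the electron transfer flavoprotein system, peroxisomal beta-oxidation, ketone bodies and regulators. Bulk RNA-seq was done on heart, kidney, liver, spleen and small intestine of 8-week-old female mice, with 2 WT and 2 KO libraries in each organ and 20 libraries in all. Nsun6 encodes an RNA methyltransferase that makes 5-methylcytosine. The KO strain came from CRISPR/Cas9 injection of C57BL/6J zygotes and lacks exons 3 and 4 in all cells, and the WT mice carry neither this deletion nor any other named change. No treatment was named for either genotype, and the feeding state of the mice was not given in the sources used here. The libraries of one group are described as biological replicates, and it was not stated whether organs with the same replicate number came from one mouse.

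Long-chain fatty acids reach cells bound to albumin or are freed from lipoproteins by lipoprotein lipase, and are activated to acyl-CoA by ligases of the outer membranes. Carnitine palmitoyltransferases and the carnitine carrier then bring the acyl group into the mitochondrial matrix, where each turn of beta-oxidation removes an acetyl unit and passes electrons to the respiratory chain. Peroxisomes shorten very long and branched chains and bile acid precursors. The liver turns surplus acetyl-CoA into ketone bodies, which heart, kidney and other organs burn, and nuclear receptors of the PPAR family switch many of these genes on.

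The libraries held 15897446 to 44508197 counts (median 28513950). Levels below are TPM, which are counts divided by exon length and scaled to the same sum in every library and so allow genes to be set beside each other. Comparisons between libraries used edgeR with TMM normalization, and a gene was called where its Benjamini-Hochberg adjusted p over all genes tested was under 0.1 and its fold change over 2. Nsun6 counts were present in every library, with 91 to 338 counts in WT and 80 to 282 in KO. The gene-level count also covers the exons that were not deleted and does not check the genotype.

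Several libraries stood apart. Organ markers matched the labels of 4 organs, with Alb at 129457 to 201296 TPM in liver, Fabp2 at 15671 to 25729 TPM in small intestine, Umod at 1225 to 2438 TPM in kidney and Myh6 at 2608 to 6733 TPM in heart. The spleen library of WT replicate 2 also held liver transcripts, and a list of 8 hepatocyte genes reached 2.71% of its mean liver level there, against 0.00566% in WT replicate 1 and 0.0878% and 0.132% in the KO libraries. The spleen library of KO replicate 1 held kidney transcripts, with 184 TPM over a list of 7 nephron genes, led by Kap at 174 TPM, against 2.04 to 3.53 TPM in the other spleens. Kidney WT replicate 2 was lowest of its organ for genes of several nephron segments. Slc34a1, a phosphate carrier of the proximal tubule, was at 3374 and 245 TPM in WT and 1696 and 933 TPM in KO kidneys, and Slc12a3, a salt carrier of the distal convoluted tubule, at 1226 and 44.7 TPM in WT and 453 and 425 TPM in KO. In the small intestine, Fabp6, the ileal bile acid binding protein, was at 39675 TPM in WT and 37793 TPM in KO replicate 1 but at 1.08 and 2.01 TPM in replicate 2. Pdx1, a transcription factor of the duodenum, was listed at 0 in both replicate 1 libraries and at 94.3 and 70.5 TPM in WT and KO replicate 2. The labels name no segment of the intestine, so replicate number, animal and segment cannot be told apart. The fat cell hormone Adipoq was at 92.6 and 27.1 TPM in the replicate 2 hearts and at 0.897 and 2.3 TPM in the replicate 1 hearts. Ucp1, the uncoupling protein of brown fat, was at 112 TPM in WT replicate 2 of the heart, 10.3 TPM in KO replicate 2 and at most 0.168 TPM in the replicate 1 hearts. Cidea, the other brown fat gene listed, was at 110 and 160 TPM in WT and 118 and 86.9 TPM in KO hearts. Cidea did not follow the replicate number. A list of 5 genes of the atrium summed to 1710 and 3923 TPM in WT and 168 and 1359.9 TPM in KO hearts, led by Nppa or Myl7. Alb took 11.8% to 18.9% of all liver counts.

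Some levels are lower bounds in the annotation used for counting. Cpt1b shares 81.4% of its exon bases with the readthrough gene Gm44502, which held 0 counts in every library. Etfb shares 58.3% of its exon bases with Etfbl and Mir7051, and Acadvl shares 42.9% with Dvl2 on the other strand. Reads within such shared bases are by default given to neither gene. Acaa1a and Acaa1b are near-identical copies whose reads could be split in part.

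The regulator of the set, PPARα, binds DNA with its partner RXR at repeats of the hexamer AGGTCA, so the 250 bases before each start in the RefSeq promoter table (GRCm38.p6) were searched for it. A window was given for 33 of the 38 genes. AGGTCA, on either strand, was found in 7 of these (21.2%), against 15.8% of the 27025 genes with a window. The direct repeat of AGGTCA, any 1 base and AGGTCA again, on either strand, was in none of them and in 0.0407% of all genes with a window. A match is a description of these letters and not a binding site. The start is that of the RefSeq table, and for Slc27a2, Cd36 and Cpt1a the shown bases lie inside the gene as counted here, whose annotation starts farther upstream. The matches are shown for 4 genes whose levels are described below, each in 30 bases read 5′ to 3′ on the strand of the gene, with AGGTCA or its reverse complement in capitals.
Slc27a2, chr2:126552792-126552821, plus strand, match 220 bases before the start: gcaccacgccttTGACCTtttcaacgtggg
Cd36, chr5:17836107-17836136, minus strand, match 228 bases before the start: ctctgcactttaTGACCTgagattttcagg
Cpt1a, chr19:3323195-3323224, plus strand, match 94 bases before the start: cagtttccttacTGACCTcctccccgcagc
Acadm, chr3:153944864-153944893, minus strand, match 249 bases before the start: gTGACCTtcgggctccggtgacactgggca

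The heart held the most transcripts of these genes and the spleen the fewest. Summed over the 38 genes, the level was 15375 to 18868 TPM in the 4 heart libraries, 8286 to 9849 TPM in kidney and 6266 to 6844 TPM in liver. It was 1225 to 1451 TPM in spleen. Kidney stood above liver in these sums, but TMM-scaled counts gave the opposite order for most genes. In the fit of all libraries, 27 of the 38 genes were higher in liver than in kidney, called or not. The median log2 fold change of liver over kidney was 0.76, against -0.08 over all genes. The small intestine lay between 2682 and 6484 TPM, with WT and KO replicate 1 at 2682 and 3911 TPM and replicate 2 at 5935 and 6484 TPM. By mean TPM, 25 genes were highest in heart, 8 in liver, 3 in kidney and 2 in small intestine, and 23 were lowest in spleen. The map of levels shows the bright heart block of transport and mitochondrial genes and the rows that break this pattern.

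**Figure D1:**
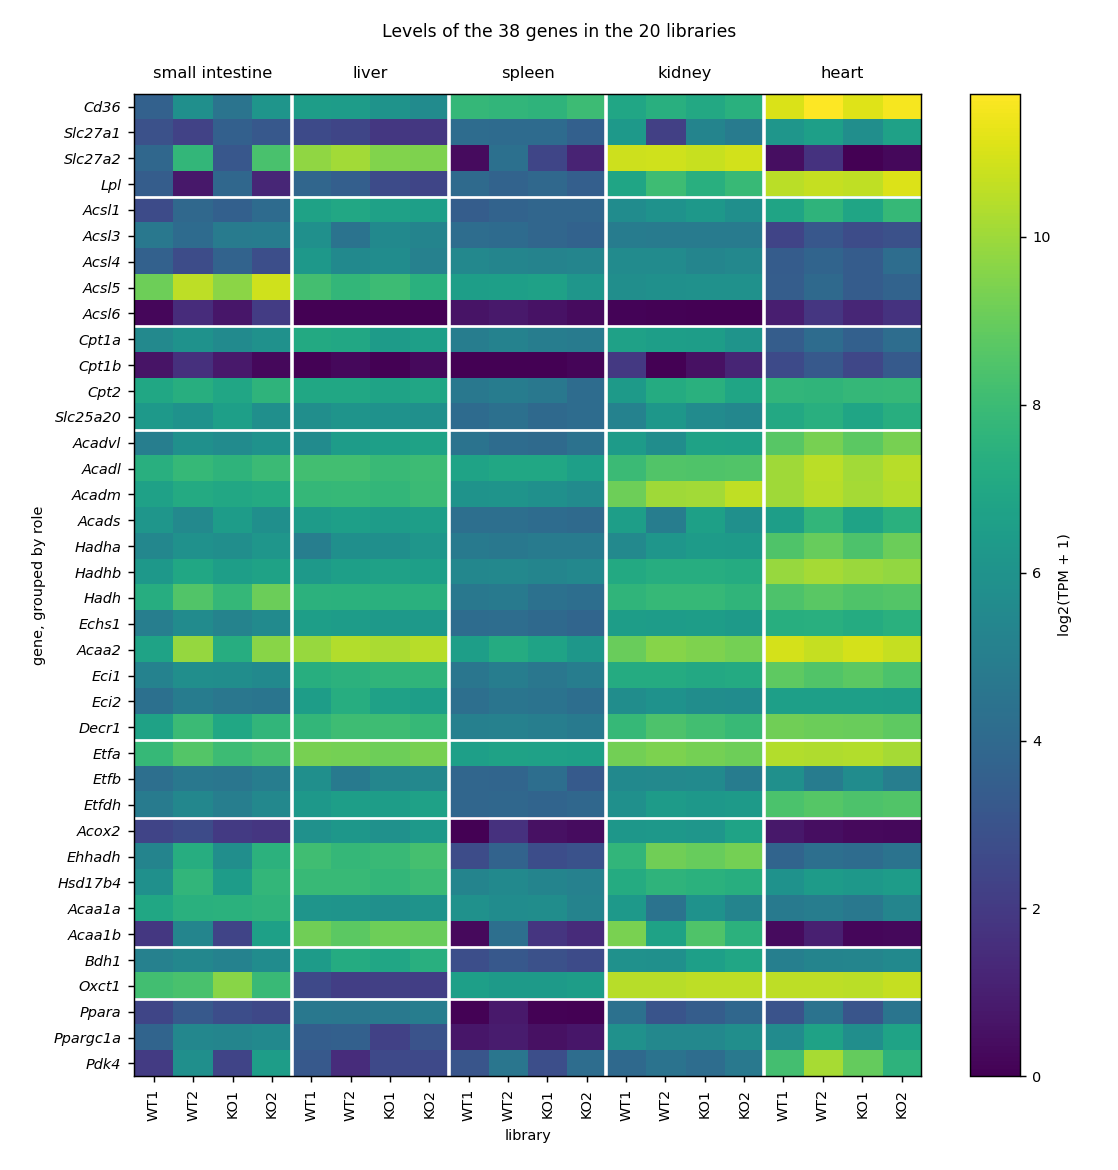
Level of each of the 38 genes (rows, grouped by role) in each of the 20 libraries (columns, grouped by organ), as log2(TPM + 1), where a brighter colour is a higher level. By mean, 11 of 12 mitochondrial genes and 3 of 4 genes of fatty acid entry are brightest in heart, peroxisomal Acaa1b and Ehhadh in liver and kidney, and Oxct1 is dark in liver alone.

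Tests between organs, in a fit of all 20 libraries, set the spleen below the other organs. Of the 38 genes, 32 were called higher in liver than in spleen, as were 22.5% of the 23159 genes tested, and 2 were called lower, as were 29.7%. Against spleen, the small intestine had 32 genes called higher and 2 lower, where 24.1% and 25.4% of all genes were called. Kidney had 32 called above spleen (26.4% of all genes) and 1 below (24.1%), and heart had 30 above (25.2%) and 4 below (27.5%). The median log2 fold change over the 38 genes was 3.60 for liver over spleen, against -0.24 over all genes, and -4.02 for spleen over heart, against 0.14. Without WT replicate 2 of the spleen, the called totals against small intestine, liver and kidney were 34, 34 and 33, as with it, where 44%, 47.8% and 45.8% of all genes were called. In heart, 31 genes were then called above spleen (23.2% of all genes) and 2 below it (24.4%). Of the 4 genes called higher in spleen than in heart, Slc27a2 and Acaa1b had their highest spleen level in this library, as given below.

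Between the oxidizing organs the genes divided. Heart was called above kidney for 20 genes (18.1% of all genes) and below it for 8 (19.9%). Heart was called above liver for 14 genes (24.8% of all genes) and below it for 12 (19.8%), with a median log2 fold change of -0.40 for liver over heart against -0.06 over all genes. Liver was called above kidney for 14 genes (13.6% of all genes) and below it for 6 (21.1%). These 20 calls were 13 without kidney WT replicate 1, where 35.1% of all genes were called in either direction, and 9 with WT libraries only, where 24.6% were, against 34.7% with all libraries. The small intestine was called below liver for 23 genes (19.3% of all genes) and above it for 5 (27%), and these 28 calls were 18 with WT libraries only, where 35.9% of all genes were called against 46.3% with all libraries. It was called below heart for 23 (25.9%) and above it for 8 (27.7%). Against kidney it had 13 genes called lower (22.6% of all genes) and 3 higher (23.2%). For 16 of the 38 genes, 1 organ was called above each of the other 4, as it was for 37.7% of all genes. Heart was that organ for 10 genes (8.65% of all genes), liver for 5 (5.59%), small intestine for 1 (8.05%) and spleen and kidney for 0 (10.2% and 5.2%).

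**Figure D2:**
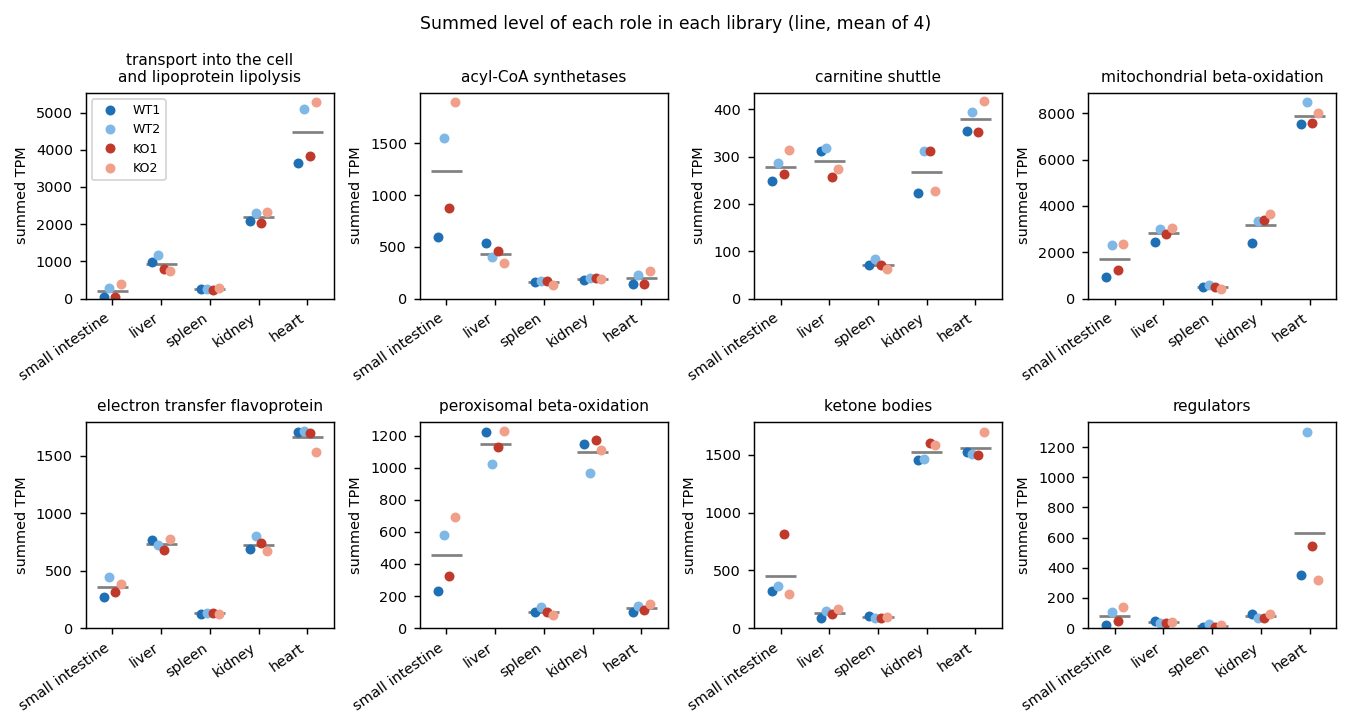
Summed TPM of the genes of each role in each library, by organ, with blue points for WT and red points for KO, lighter for replicate 2, and a grey line at the mean of 4. Heart leads in transport, mitochondrial oxidation and electron transfer, liver and kidney in peroxisomal oxidation, kidney and heart in ketone bodies and small intestine in acyl-CoA synthetases, and in 7 of the 8 roles both replicate 2 libraries of the small intestine lie above both replicate 1 libraries.

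Of the 4 genes for fatty acid entry, 3 were highest in heart and Slc27a2 in kidney. Cd36, the fatty acid translocase of the plasma membrane, was at 2137 and 3342 TPM in WT and 2268 and 2959.5 TPM in KO hearts, with a mean of 2677 ± 571 (SD, n = 4). The spleen came next with 220 ± 27.4 TPM, and no other organ's libraries reached the heart range. The log2 fold change of heart over spleen was 4.21 (SE 0.56, adjusted p 2.07e-05), and spleen, kidney and liver were not called apart from each other. Lpl, the lipase that frees fatty acids from lipoproteins, had the same leader, with 1445 and 1659 TPM in WT and 1515 and 2209 TPM in KO hearts. Kidney held 117 to 269.7 TPM of Lpl, and the log2 fold change of heart over kidney was 3.22 (SE 0.71, adjusted p 0.00214). In the replicate 1 hearts, with Adipoq at 0.897 and 2.3 TPM, Lpl was at 1445 and 1515 TPM and Cd36 at 2137 and 2268 TPM.

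Slc27a2, an acyl-CoA synthetase and transporter for very long chains, was highest in kidney and liver. It was at 1776 and 1852 TPM in WT and 1688 and 1900 TPM in KO kidneys, and at 878 and 1071 TPM in WT and 714 and 698 TPM in KO livers. The 4 kidneys were all above the 4 livers in TPM, but the log2 fold change of kidney over liver was 0.30 (SE 1.17, adjusted p 0.929). The small intestine held 13.8 and 217 TPM in WT and 7.96 and 327 TPM in KO, the higher value in replicate 2 of each, and was called below kidney and liver and above spleen and heart. Heart held 0 to 2.29 TPM. In the spleen it was at 0.285 TPM in WT replicate 1, 19.2 in WT replicate 2, 4.5 in KO replicate 1 and 1.27 in KO replicate 2. KO replicate 1 is the spleen with kidney transcripts, and their part in its Slc27a2 level was not tested. The liver level times the hepatocyte share of WT replicate 2 comes to 22.8 TPM. The same product was 14.1 TPM for Acaa1b, which was listed at 18.3 TPM in that library. Not every gene followed its product. The level above the mean of the other spleens was 7.26 TPM for Etfa (product 16.4) and 53.2 TPM for Acaa2 (product 32.7). The part of liver transcripts in these levels was not tested. Slc27a1, a transporter of muscle and fat, was called highest in heart, at 81.3 TPM on average, and ranged from 3.58 TPM in WT replicate 2 to 79.3 TPM in WT replicate 1 of the kidney.

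Of the long-chain acyl-CoA synthetases, Acsl1 and Acsl6 had their highest mean TPM in heart, Acsl3 and Acsl4 in liver and Acsl5 in small intestine. Acsl5, a synthetase known from enterocytes, was at 556 and 1512 TPM in WT and 819 and 1847 TPM in KO small intestine. The liver followed at 236 ± 53.7 TPM (SD, n = 4), and the log2 fold change of small intestine over liver was 1.77 (SE 0.39, adjusted p 0.00182). Heart, the lowest, held 9.5 to 15 TPM of Acsl5. Acsl1, a synthetase known from heart, fat and liver, was at 114 to 229 TPM in heart and 96.8 to 127 TPM in liver. These organs were not called apart, and the log2 fold change of heart over liver was -0.08 (SE 0.35, adjusted p 0.938), of the opposite sign to the TPM order. The livers held 1.67 to 2.79 times as much Acsl5 as Acsl1. Acsl3 was called highest in liver, at 40.6 TPM on average. Acsl4, which prefers arachidonate, was highest in liver at 51.0 TPM, with kidney next. These organs were not called apart, with a log2 fold change of 0.95 (adjusted p 0.00378), under the fold threshold. Acsl6, known from brain, was low everywhere, with 0 counts in the 4 livers and 0.999 to 2.62 TPM in heart. It reached 3.24 TPM in KO replicate 2 of the small intestine, and heart and small intestine were not called apart (adjusted p 0.797). Without WT replicate 2 of the small intestine, heart was called higher, with a log2 fold change of 1.63 (adjusted p 0.0832).

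In the carnitine shuttle, the liver isoform and the muscle isoform of carnitine palmitoyltransferase 1, the step that malonyl-CoA inhibits, were highest in liver and in heart. Cpt1a was at 136 and 129 TPM in WT and 86.1 and 96.2 TPM in KO livers, and at 9.98 to 17 TPM in heart. The log2 fold change of liver over kidney, the next organ, was 1.15 (SE 0.24, adjusted p 0.00154), and 0.99, under the fold threshold, without kidney WT replicate 1. Cpt1b was at 5.10 and 8.73 TPM in WT and 4.57 and 9.07 TPM in KO hearts, at most 2.79 TPM in any kidney and 0 counts in 3 of 4 spleens. Its log2 fold change of heart over kidney was 2.96 (SE 1.04, adjusted p 0.0358), but 2.67 (adjusted p 0.137) without kidney KO replicate 1 and 2.81 (adjusted p 0.263) with WT libraries only. The levels of the isoforms cannot be ranked against each other in heart, since 81.4% of the exon bases of Cpt1b are shared and those of Cpt1a are not. Cpt2, which restores the acyl-CoA inside the matrix, was highest in heart and lowest in spleen by mean TPM. Its TPM was 216 ± 13.1 in heart, 151 ± 35.8 in small intestine, 129 ± 38 in kidney, 119 ± 6.67 in liver and 23.7 ± 5.33 in spleen (SD, n = 4), and neighbours in this order were not called apart until spleen. The log2 fold change of liver over kidney was 0.65 (adjusted p 0.143), and of small intestine over liver -0.27 (adjusted p 0.545). Both had the opposite sign to the TPM order. The carnitine-acylcarnitine carrier gene Slc25a20 was highest in heart, at 115 to 165 TPM.

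Among the 12 genes of mitochondrial beta-oxidation, 11 were highest in heart, and 4 (Acadvl, Acadl, Hadha and Hadhb) were called above each of the other 4 organs there. Acaa2, the last enzyme of the medium-chain spiral, had the highest level of all mitochondrial members, with 1996 and 1631 TPM in WT and 1957 and 1631 TPM in KO hearts. Liver held 963 and 1298 TPM in WT and 1176 and 1391 TPM in KO. TMM-scaled counts did not set these organs apart, with a log2 fold change of heart over liver of -0.01 (SE 0.63, adjusted p 1), of the opposite sign to the TPM order. Acadvl, the very-long-chain acyl-CoA dehydrogenase, varied most between organs, from 18.3 ± 2.66 TPM in spleen to 525 ± 121 TPM in heart (SD, n = 4). It was at 410 and 636 TPM in WT and 431 and 624 TPM in KO hearts, and the log2 fold change of heart over kidney was 2.85 (SE 0.31, adjusted p 4.96e-06). Hearts of replicate 2 were above those of replicate 1 in TPM, but both were above all other organs.

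Of the dehydrogenases for shorter chains, Acadl was called highest in heart, and Acadm and Acads were not. Acadl was at 1034 to 1427 TPM in heart and 250 to 372 TPM in kidney, the next by TPM. Its log2 fold change of liver over kidney was 0.44 (adjusted p 0.265), of the opposite sign to the TPM means. Acadm, the medium-chain enzyme, was as high in some kidneys as in hearts, with 551 and 1034 TPM in WT and 1083 and 1556 TPM in KO kidneys against 1064 to 1387 TPM in hearts. The organs overlapped, and the log2 fold change of heart over kidney was 0.40 (SE 0.33, adjusted p 0.372). Acads, the short-chain enzyme, was at 93.4 and 210 TPM in WT and 111 and 170 TPM in KO hearts, and heart and liver were not called apart. By mean TPM, Hadh and Cpt2 had small intestine as second organ, and Eci2 was highest in liver. For Cpt2 this order held for TPM only, as given above.

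Hadha and Hadhb encode the subunits of the mitochondrial trifunctional protein and lie head to head on chromosome 5, with 85 bases between their annotated starts at 30155162 and 30155248 (GRCm38). Both were called highest in heart, with log2 fold changes over kidney of 2.78 (SE 0.36, adjusted p 2.25e-05) for Hadha and 2.93 (SE 0.32, adjusted p 4.81e-06) for Hadhb. The ratio of their TPM was 0.320 at its lowest, in WT replicate 1 of the kidney, and 0.730 at its highest, in KO replicate 2 of the liver. It changed by a smaller factor over the 20 libraries than any other pair of genes set side by side here.

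The electron transfer flavoprotein takes electrons from the acyl-CoA dehydrogenases and hands them to ubiquinone through Etfdh. Etfa was at 1321 and 1288 TPM in WT and 1305 and 1133 TPM in KO hearts, and at 610.8 ± 50.04 TPM in kidney, 605 ± 40.1 in liver and 101 ± 4.53 in spleen (SD, n = 4). The log2 fold change of heart over kidney was 1.26 (SE 0.30, adjusted p 0.00336), but 1.15 (adjusted p 0.143) with WT libraries only. Kidney and liver were not called apart. The log2 fold change of liver over kidney was 0.78 (adjusted p 0.0487), under the fold threshold and of the opposite sign to the TPM means. Heart was not called above every other organ for Etfa. Etfdh had a steeper profile, with 334 and 396 TPM in WT and 344 and 373 TPM in KO hearts against 90.3 ± 11.9 TPM in liver and 13.5 ± 0.523 TPM in spleen. The log2 fold change of heart over liver was 1.38 (SE 0.31, adjusted p 0.00205). Etfb, partly hidden from counting, was at 29.5 to 57.0 TPM in heart and 29.5 to 47.5 TPM in kidney.

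Peroxisomal genes were not led by the heart, and the mean level of all 5 was lower in heart than in liver. Their summed TPM was 1022 to 1226 in liver, 968 to 1175 in kidney, 229 to 692 in small intestine, 102 to 148 in heart and 79.8 to 129 in spleen. Acaa1b, a peroxisomal thiolase, was at 581 and 430 TPM in WT and 548 and 527 TPM in KO livers. Kidneys were uneven, with 645 and 107 TPM in WT and 353 and 180 TPM in KO, and the log2 fold change of liver over kidney was 1.66 (SE 1.09, adjusted p 0.266), and 1.63 (adjusted p 2.96e-06) with no filter on low counts. Hearts held 0.154 to 1.03 TPM. Its copy Acaa1a had another pattern, highest in small intestine at 126 and 170 TPM in WT and 175 and 194 TPM in KO. Small intestine and liver, the next, were not called apart for it, with a log2 fold change of 0.76 (adjusted p 0.0296), under the fold threshold. Acaa1b exceeded Acaa1a by 6.61 to 9.43 times in liver and 4.75 to 8.28 times in kidney, and was at 0.0220 to 0.513 of it in small intestine. Ehhadh, the peroxisomal bifunctional enzyme, was at 205 to 620 TPM in kidney and 221 to 307 TPM in liver, which were not called apart. Hsd17b4, its counterpart for branched chains, was called highest in liver, and Acox2, the oxidase for bile acid precursors, was at 58.8 to 76.2 TPM in liver and 69.9 to 109.7 TPM in kidney. The log2 fold change of kidney over liver for Acox2 was -0.54 (SE 0.67, adjusted p 0.597), of the opposite sign to the TPM means.

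The ketone body genes were split between the organ that makes ketone bodies and those that use them. Oxct1 encodes the mitochondrial transferase that activates acetoacetate for burning and is known to be missing from hepatocytes. It was at 1493 and 1470 TPM in WT and 1459.8 and 1656 TPM in KO hearts, at 1393 and 1408 TPM in WT and 1503 and 1469 TPM in KO kidneys, and at 5.08 and 3.48 TPM in WT and 3.61 and 3.55 TPM in KO livers. Heart and kidney did not differ beyond the threshold, with a log2 fold change of 0.28 (SE 0.29, adjusted p 0.498), and liver was below every other organ, with -3.27 (SE 0.32, adjusted p 1.26e-06) against spleen. Bdh1, which interconverts acetoacetate and beta-hydroxybutyrate, was highest where Oxct1 was lowest, at 85.5 and 144 TPM in WT and 123 and 167 TPM in KO livers. Its log2 fold change of liver over kidney was 1.53 (SE 0.29, adjusted p 0.000738). The ratio of Oxct1 to Bdh1 was 0.0213 to 0.0594 in liver, 12.3 to 24.2 in kidney and 36.5 to 46.2 in heart.

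**Figure D3:**
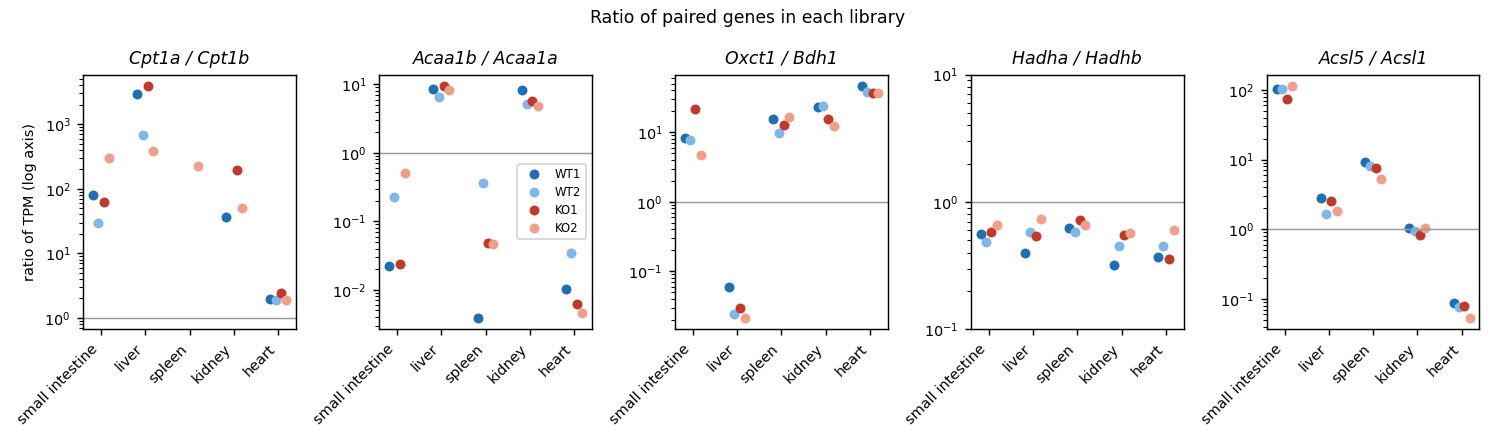
Ratio of TPM (log axis) of 5 pairs of genes in each library, by organ, with a grey line at equal levels and no point where the second gene had no count; the ratio of Cpt1a to Cpt1b is overstated by the shared bases of Cpt1b. Oxct1 exceeds Bdh1 in every organ but liver, Acaa1b exceeds Acaa1a in liver and kidney only, and Hadha stays below Hadhb in all 20 libraries.

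Of the regulators, Ppara was highest in liver, at 25.2 and 23.7 TPM in WT and 25.8 and 29.9 TPM in KO, and the log2 fold change over heart was 1.55 (SE 0.50, adjusted p 0.0195), but 1.41 (adjusted p 0.244) with WT libraries only. Spleens held 0 to 0.0598 TPM in 3 libraries and 0.721 TPM in WT replicate 2, the one with liver transcripts. Ppargc1a, a coactivator that drives mitochondrial genes, was highest in heart at 49.6 and 105 TPM in WT and 54.0 and 111 TPM in KO. Pdk4, the kinase that shuts pyruvate out of oxidation when fat is burned, was at 294 and 1173 TPM in WT and 486 and 189 TPM in KO hearts. It was called highest in heart, with a log2 fold change over small intestine of 3.66 (SE 1.07, adjusted p 0.0103), but its hearts spanned more than those of any other of the 38 genes above 100 TPM there. Replicate 2 hearts were the deeper ones in sequencing, and both had more Ppara, 21.1 and 22.5 TPM, than the replicate 1 hearts, 7.07 and 7.52 TPM. WT replicate 2, the heart with the most Pdk4, also held the most Ucp1 and atrial transcripts, as given above. A list of 4 lung genes, led by Scgb1a1, summed to 147 and 294 TPM in WT and 31.0 and 155 TPM in KO hearts. The part of the fat cell, atrial and lung markers in these heart differences was not tested.

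Within the small intestine, genes of fat oxidation followed the replicate number. In the fit of all libraries with the number as a term for this organ, 13 genes were called higher in replicate 2 and 1 lower, where 4.31% and 3.68% of the 23159 genes tested were called. With each intestine library left out in turn, 4 to 7 genes were called, where 3.62% to 4.65% of all genes were, the fewest without WT replicate 1, and Cd36, Lpl and Acaa2 were among them without WT replicate 1, WT replicate 2 or KO replicate 2. In both genotypes, 30 of 38 genes were higher in the replicate 2 library and 4 were lower, as were 27.6% and 32.4% of all genes tested. The median log2 fold change over the 38 genes was 0.79, against -0.05 over all genes. The replicate 2 libraries are those with Pdx1, and a list of 6 genes of the proximal intestine summed to 2023 and 2586 TPM in them, led by Ada, against 203 and 116 TPM in replicate 1. A list of 3 genes of the distal intestine summed to 3.5 and 6.65 TPM in replicate 2, led by Slc10a2, and to 41450 and 40712 TPM in replicate 1, led by Fabp6. A list of 6 enterocyte genes summed to 17024 and 27870 TPM in replicate 1 and 31214 and 31888 TPM in replicate 2. Fabp2 led this list, and its genes Cdx1 and Cdx2 were lower in replicate 2. The part of enterocytes in these differences was not tested.

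Mitochondrial thiolase Acaa2 rose most clearly among the higher genes, from 60.5 to 633 CPM (counts divided by the TMM-adjusted library size) in WT and from 80.9 to 514 CPM in KO, a log2 fold change of 3.03 (SE 0.50, adjusted p 0.00249). Cd36 was at 14.6 and 26.6 CPM in replicate 1 and 93.4 and 103 CPM in replicate 2, a log2 fold change of 2.32 (SE 0.40, adjusted p 0.00303). Hsd17b4 went from 70.0 and 102 CPM to 326 and 309 CPM, a log2 fold change of 1.91 (SE 0.34, adjusted p 0.00401), and of 1.60 (adjusted p 0.11) without WT replicate 1. For these genes no replicate 1 library reached a replicate 2 library. The other genes called higher were Slc27a2 (log2 fold change 5.0), Pdk4 (4.61), Acaa1b (4.51), Acsl6 (3.24), Ehhadh (2.22), Acsl5 (1.64), Hadh (1.60), Acsl1 (1.32), Decr1 (1.31) and Ppargc1a (1.31).

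Lpl ran the other way, from 37.1 CPM in WT and 51.3 CPM in KO replicate 1 to 3.37 and 6.39 CPM in replicate 2, a log2 fold change of -3.23 (SE 0.52, adjusted p 0.00186). Adipoq was at 25.7 and 18.7 TPM in WT and KO replicate 1 and at 0.125 and 0 TPM in replicate 2. The list of 7 fat cell genes summed to 158 and 126 TPM in replicate 1, led by Cfd, and to 198 and 205 TPM in replicate 2, where Cidec made up 195 and 205 TPM. The part of fat cells in the Lpl difference was not tested. Acsl4 and Oxct1 were the next lower genes by p and were not called. Acsl4 was at 22.3 and 23.1 CPM in replicate 1 and 13.96 and 13.98 CPM in replicate 2, with a log2 fold change of -0.70 (SE 0.26, adjusted p 0.14). Oxct1 stood out in KO replicate 1, at 994 CPM against 380, 547 and 385 CPM in WT replicates 1 and 2 and KO replicate 2. A list of 6 heart muscle genes summed to 249 TPM in this library, led by Actc1, against 4.97, 5.93 and 9.98 TPM in the other 3. Smooth muscle genes summed to 976 TPM in it and 626 TPM in KO replicate 2, against 135 and 181 TPM in WT. The part of muscle transcripts was not tested.

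**Figure D4:**
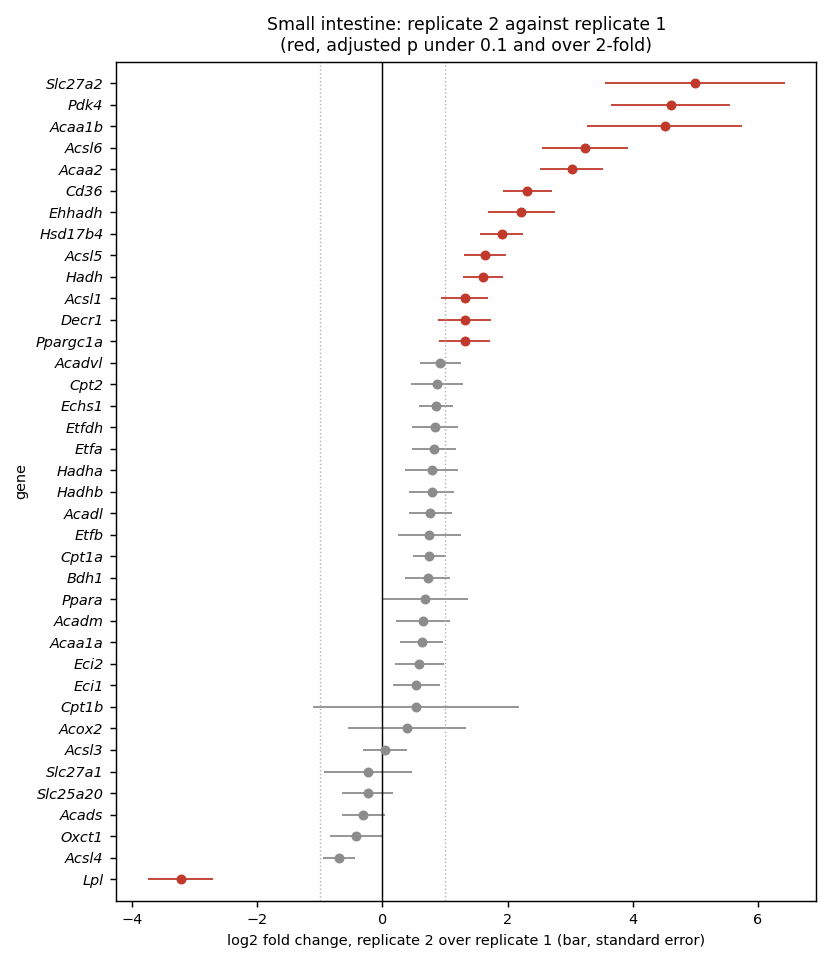
Log2 fold change of replicate 2 over replicate 1 in the small intestine for the 38 genes, sorted, with bars for the standard error, red points for the 14 genes called and dotted lines at a fold of 2. Slc27a2, Pdk4 and Acaa1b lie farthest to the right and Lpl is the red point on the left.

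Whether loss of Nsun6 changed these genes was tested within each organ. No member was called in any organ by edgeR, where 0, 8, 42, 0 and 0 of all genes tested were called in small intestine, liver, spleen, kidney and heart, or 0%, 0.0509%, 0.223%, 0% and 0%. At an unadjusted p under 0.05 there were 0, 3, 1, 0 and 1 members, of 38, 36, 36, 37 and 37 tested, and 2.39%, 4.70%, 5.14%, 0.638% and 0.703% of all genes. DESeq2 called 1 member, Lpl in the liver, and 0.322%, 0.369%, 1.16%, 0.0057% and 0.012% of all genes in the same order of organs. The median log2 fold change of KO over WT was 0.13 in small intestine, 0.15 in liver, -0.04 in spleen, -0.07 in kidney and 0.02 in heart, against 0.00, 0.00, 0.01, -0.03 and -0.01 over all genes. The KO and WT libraries did not overlap for 3, 10, 5, 2 and 6 members, or 7.89%, 27.8%, 13.9%, 5.41% and 16.2% of those tested, against 25.2%, 33.3%, 31.3%, 21.5% and 17.2% of all genes. Leaving out a WT library gave calls. In the kidney these were 4 of 37 members without WT replicate 1, where 16.1% of all genes were called, and 6 of 37 without WT replicate 2, where 2.37% were. In the liver they were 2 of 37 without WT replicate 1 (1.25% of all genes) and 4 of 37 without WT replicate 2 (1.16%), and in the spleen 1 of 37 without WT replicate 1 (1.86%). A gene that was not called is not shown to be unchanged. No member was called as different between organs in its KO change (adjusted p of the interaction under 0.1, as for 0% of all genes). With no filter on low counts, Slc27a2, Acaa1b and Ppara were (2.66% of all genes), and without kidney WT replicate 1, Slc27a1 was (0.287%). None was called in an effect shared by the organs, as was 0.00432% of all genes.

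The lowest p was that of Lpl in the liver, at 47.0 and 48.8 CPM in WT and 24.3 and 19.9 CPM in KO. Both KO livers lay below both WT livers, and the log2 fold change was -1.12 (SE 0.19) with an adjusted p of 0.306 from edgeR and 0.00381 from DESeq2. Without liver WT replicate 1 or 2, edgeR gave an adjusted p of 0.0121 or 0.0236, and without KO replicate 1 or 2 of 0.983 or 1. Adipoq was at 0 TPM in 3 livers and 0.0799 TPM in KO replicate 2. Ppargc1a was at 22.3 and 32.1 CPM in WT and 11 and 19.6 CPM in KO livers, a log2 fold change of -0.83 (SE 0.30, adjusted p 0.984), again without overlap. Slc27a1, Cd36 and Cpt1a were the other members lower in both KO livers than in both WT livers, and Acadvl, Eci1, Ehhadh, Acaa1b and Ppara the members higher.

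In the other organs the members with the smallest p differed as follows, with edgeR adjusted p from 0.95 upwards with all libraries. In the spleen, Acsl1 was at 37.5 and 49.2 CPM in WT and 58.3 and 59.6 CPM in KO (log2 fold change 0.44, SE 0.19), and Hadha at 83.9 and 84.0 CPM in WT and 100.1 and 104 CPM in KO (0.28, SE 0.15). Epb42, a membrane skeleton protein of red cells, was at 29.8 and 33.3 TPM in WT and 83.0 and 97.96 TPM in KO spleens, and the list of 7 fat cell genes summed to 77.8 and 24.5 TPM in WT and 157 and 135 TPM in KO spleens, led by Cfd. The part of red cell precursors and fat cells in the spleen differences was not tested. In the kidney, Acadvl was at 69.6 and 72.1 CPM in WT and 112 and 107 CPM in KO (0.63, SE 0.27), and Bdh1 at 71.4 and 115 CPM in WT and 146 and 181 CPM in KO (0.81, SE 0.36). Without kidney WT replicate 2, Bdh1 was called, with a log2 fold change of 1.22 (adjusted p 0.0279). These 4 genes were higher in both KO libraries. The list of 7 fat cell genes summed to 149.98 and 98.5 TPM in WT and 96.9 and 2.22 TPM in KO kidneys, and its part in the kidney differences was not tested. In the small intestine, Slc27a1 was at 13.3 and 10.3 CPM in WT and 20.96 and 20.2 CPM in KO (0.80, SE 0.33), and Acox2 at 5.68 and 8.93 CPM in WT and 3.65 and 4.09 CPM in KO (-0.92, SE 0.48). Smooth muscle genes were also higher in both KO intestines, as given above, and their part in the Slc27a1 difference was not tested. In the heart, Slc27a2 and Acox2 were under 3 CPM in every library and were not called. Slc27a2 was at 0.586 and 2.87 CPM in WT and at 0 and 0.220 CPM in KO.

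**Figure D5:**
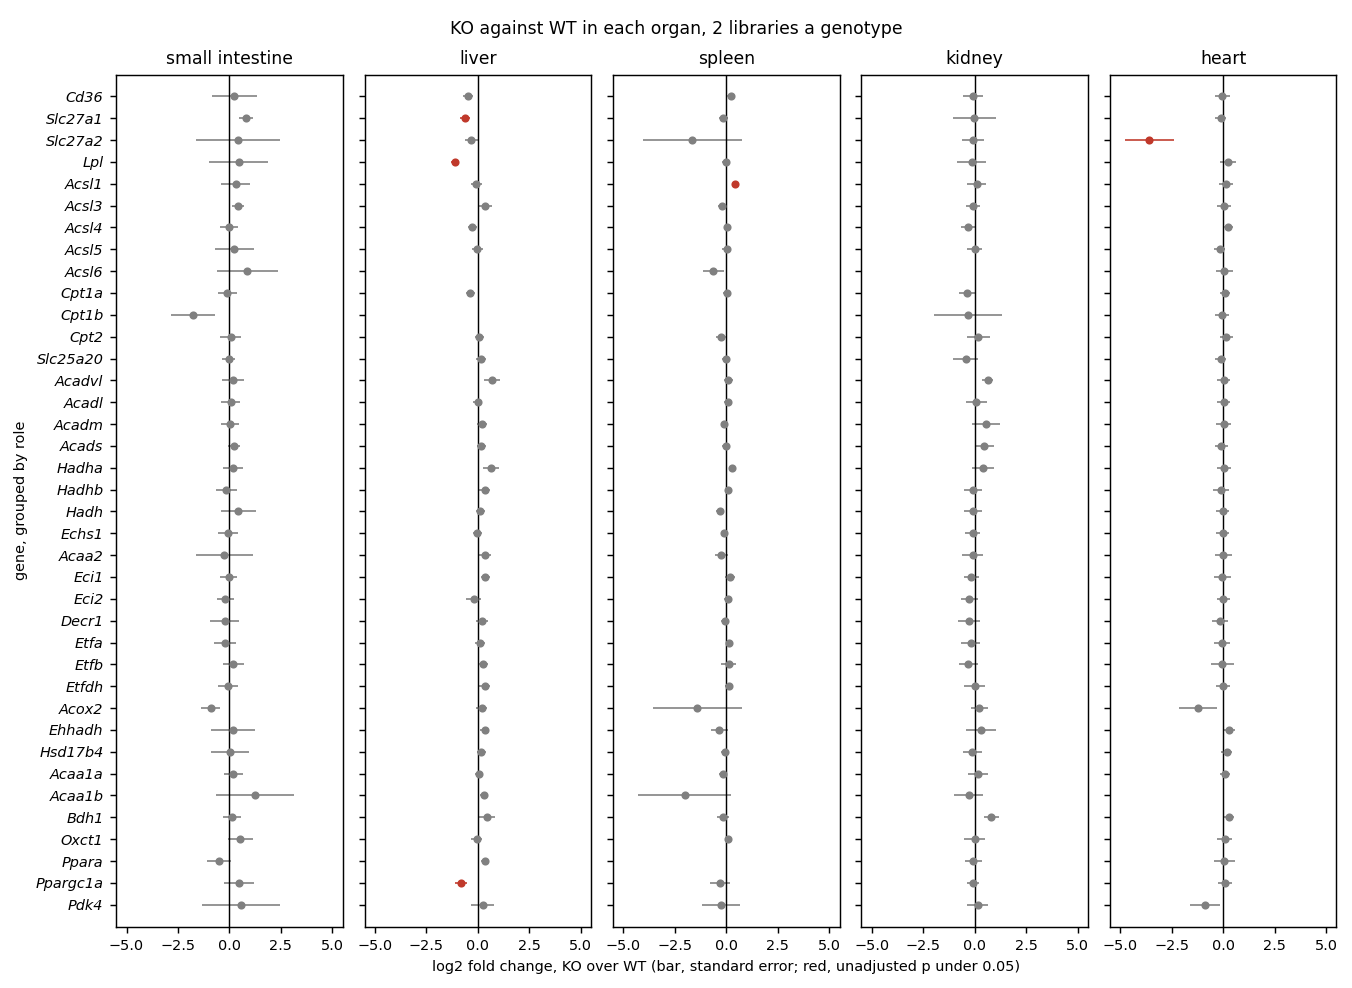
Log2 fold change of KO over WT for the 38 genes (rows) in each organ (panels), with bars for the standard error and red points for an unadjusted p under 0.05; a gene without a point had too few counts. Most points lie near 0, Lpl, Ppargc1a and Slc27a1 are the red points of the liver, and the widest bars are those of Slc27a2, Acaa1b and Acox2 in spleen.

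The width of these intervals differed by organ. The spread between replicates, as the common biological coefficient of variation in edgeR, was 0.602 in small intestine, 0.457 in kidney, 0.322 in heart, 0.310 in spleen and 0.238 in liver. In the kidney it could be seen in Acadm, at 551 TPM in WT replicate 1 and 1034 in WT replicate 2, in Slc27a1, at 79.3 and 3.58 TPM, and in Acaa1b, at 645 and 107 TPM in the same libraries. WT replicate 2 was also the kidney with the least Slc34a1 and Slc12a3, and the part of the nephron segments in these differences was not tested.

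Another 67 genes of lipid and ketone handling were taken as a list of carriers, auxiliary enzymes, lipases and regulators. Liver was called above spleen for 48 of them (22.5% of all genes) and below it for 5 (29.7%), with a median log2 fold change of 2.50 against 3.60 for the 38 genes. Spleen was called below heart for 43 (25.2%) and above it for 9 (27.5%), with a median of -1.61 against -4.02. Liver was called above heart for 26 (19.8%) and below it for 16 (24.8%), with a median of 0.43, of the opposite sign to that of the 38 genes, -0.40. In the small intestine, 11 were called higher in replicate 2 (4.31% of all genes) and 2 lower (3.68%). Lipa, the lysosomal acid lipase, had the smallest p among the higher ones, with a log2 fold change of 2.47 (SE 0.28, adjusted p 0.000137), and Abcd2, a peroxisomal acyl-CoA transporter, among the lower ones, with -1.88 (SE 0.45, adjusted p 0.0232). Between KO and WT, none of the 67 was called in any organ, and 1, 5, 3, 1 and 0 of 64, 64, 67, 64 and 61 tested had an unadjusted p under 0.05 in small intestine, liver, spleen, kidney and heart, as had 2.39%, 4.70%, 5.14%, 0.638% and 0.703% of all genes.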

How the data were processed

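RNA-seq libraries were grouped by the organ, genotype and replicate number of their labels. The authors trimmed reads with cutadapt, mapped them with HISAT2 2.1.0 and counted them with featureCounts 2.0.1 on exons of GRCm38 (mm10), and deposited raw counts per gene with no normalization. The methods name strand-specific counting of proper pairs, but these options are missing from the command line in the count file, and 54.9% to 59.8% of counts from 10 to 50 were even. Mates were thus counted singly and without strand, and counts are not independent molecules. The deposited exon length, a value of no sample (other than a measurement), gave TPM.

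Counts were tested with edgeR 4.0.16 in R 4.3.3 (limma 3.58.1): TMM, filterByExpr and the robust quasi-likelihood test, with Benjamini-Hochberg adjustment over all genes tested. KO was compared with WT in fits of the 4 libraries of an organ. Organs, the interaction and the intestine replicate number were tested in fits of 20 libraries, and the shared effect in a fit of organ and genotype. The interval behind a value is limited by the spread between replicates. DESeq2 1.42.0, other scalings and filters, a replicate block and left-out libraries were alternatives. The fits were also run on simulated data, drawn from a mean profile over the libraries of each fit with known changes added. Other organ differences and transcripts of foreign organs were not simulated, so these runs do not cover them. The genes, roles and lists were chosen with earlier results of these data known. Genes named by rule were given with library values, ranges or means, not always for every organ. In each role these were the gene with the highest level and the one with the widest organ range. Both genes of the isoform and ketone body pairs were also named. So were the 2 smallest p per organ between KO and WT, and the 3 smallest p per direction in the intestine. Other genes with values were chosen after these were seen. Sequences came from RefSeq. The marker check of the spleen is not reported here.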

Additional observations from a re-analysis of the deposited data

Results flagged for a closer look

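In each organ, the 4 TPM values of a named gene were compared for a library far from the other 3, by a gap over 0.829 of the whole range. This held for 10 of 125 sets of 4 libraries, and chance gives about 1 in 20.

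In the spleen, WT replicate 2, which holds liver transcripts, was high for Acaa1b (18.3 TPM, others 0.234 to 2.48) and Ppara (0.721 TPM, others 0 to 0.0598). KO replicate 2 was high for Cpt1b (0.128 TPM, others 0) and low for Slc27a1 (10.9 TPM, others 16.04 to 16.8). In the heart, WT replicate 2 was high for Slc27a2 (2.29 TPM, others 0 to 0.367) and Acaa1b (1.03 TPM, others 0.154 to 0.281), and KO replicate 2 for Oxct1 (1656 TPM, others 1459.8 to 1493). Oxct1 was also high in KO replicate 1 of the small intestine (777 TPM, others 243 to 323) and in WT replicate 1 of the liver (5.08 TPM, others 3.48 to 3.61). Acox2 was high in KO replicate 2 of the kidney (109.7 TPM, others 69.9 to 74.4).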

How the results depend on the processing

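Precision is limited by 2 libraries for each organ and genotype, by counting without strand, by the intestine segments and by the spleen library with liver transcripts. Of the alternative values for counts of called genes, 410 stayed within 1.5 times and 17 did not. In the liver, KO against WT gave 1 called gene, Lpl, with no filter on low counts and with DESeq2. DESeq2 called 0.369% of all genes there, and the share with no filter was not counted. The edgeR adjusted p of Lpl ran from 0.00016 with no filter to 1 in a fit of all 20 libraries. Leaving out 1 library gave 0 to 4 called genes in the liver, 0 to 1 in the spleen and 0 to 6 in the kidney. These were 2 without liver WT replicate 1 (Lpl, Pdk4), 4 without liver WT replicate 2 (Lpl, Acadvl, Hadha, Bdh1), 1 without spleen WT replicate 1 (Acaa1b), 4 without kidney WT replicate 1 and 6 without kidney WT replicate 2. The lone library left in a group is then assumed to vary like the others. With WT libraries only, 18 genes were called between small intestine and liver and 9 between liver and kidney, which gave 13 to 23 with a library left out, the lowest without kidney WT replicate 1. Replicate 2 against 1 in the small intestine gave 9 genes at an edgeR adjusted p under 0.05, and the share of all genes at this threshold was not counted. Fewer genes were called with an intestine library left out, as given above. The interaction of genotype and organ gave 3 genes with no filter (Slc27a2, Acaa1b, Ppara) and 0 to 1 with a library left out (Slc27a1 without kidney WT replicate 1).

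With the replicate number as a block, 0 genes were called between KO and WT in every organ, as without it. Deviations of same-numbered libraries correlated at 0.48 in small intestine, 0.25 in heart, 0.073 in kidney, 0.026 in liver and 0.012 in spleen, and with 2 pairs per organ the numbers were not taken as pairs, though in the small intestine they go with the segment markers. Signs turned for genes that were not called with all libraries. Acaa2 in heart over liver was 0.12 with upper quartile scaling, 0.000885 with no filter, 0.13 with WT libraries only, 0.12 with the block and -0.29 to 0.12 with a library left out. Leaving out a library gave -0.18 to 1.63 for Acsl6 in heart over small intestine, the latter called, and -1.37 to 0.52 for Oxct1 in intestine replicate 2 over 1. Among values of single genes, 587 kept direction and side of the threshold, 7 passed it only in the alternative (Lpl in the liver under 4 settings, Bdh1 in the kidney, Acsl6 and Acaa1b) and 6 no longer passed (Cpt1b under 2 settings, Etfa, Ppara, Cpt1a and Hsd17b4, as given beside their values).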
